A study of Mus musculus with 4 samples.

Results

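In mouse liver and uterus, ESR1 peaks that overlapped did not always have their highest points at the same position, and the pairs in which those points lay far apart are described here. The members were chosen by the positions of the peak summits: a liver and a uterus peak on the same autosome had to overlap by at least 1 bp, with summits more than 200 bp apart. These displaced pairs numbered 317 of 1643 overlapping autosomal pairs, which is 19.3% (95% Wilson interval 17.5 to 21.3). They held 316 different liver peaks of 6896 and 316 different uterus peaks of 24527. In the contrast, 940 coincident pairs had summits at most 50 bp apart, and 386 pairs lay between, at 51 to 200 bp.

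The series held 4 samples, an ESR1 chromatin immunoprecipitation (ChIP-seq) library and an input control from the liver and from the uterus of female C57BL/6J mice aged 8 weeks (strain given as C57BL/6 in the sample characteristics). Frozen whole tissue was crosslinked, with no treatment or genetic change named in the labels. Each tissue had 1 ESR1 peak list from 1 library, with 20016495 unique tags in liver and 22298008 in uterus, and the sources used here do not say whether a library pooled animals. The input controls entered only through the authors' peak calling. The tissue labels were not checked against marker genes, since the lists hold binding positions and no expression.

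ESR1, estrogen receptor alpha, belongs to the nuclear receptors and binds DNA as a dimer at estrogen response elements, at single copies of their repeated motif, or indirectly through other transcription factors. The uterus is a classical target organ of estrogens, and hepatocytes also express the receptor. A ChIP-seq peak is the stretch over which tags from bound fragments exceed the background, and its summit is the position where they pile up highest, the usual estimate of where the protein sits. A single bound element gives 1 sharp maximum, whereas neighbouring elements within a stretch can merge into 1 broad peak with the summit over the most heavily tagged of them. Whole tissue mixes cell types, so a site bound in few cells and a site bound weakly in many cannot be told apart.

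All values of the peaks came from the same lists that chose the members, so the differences between displaced and coincident pairs are descriptions of these libraries, without a test, and no spread between animals was available. Intervals are 95% intervals. Those of shares are Wilson intervals, those of medians come from binomial order statistics, and they cover only the variation over pairs. Peaks of 1 library share their source and are not replicates.

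In the displaced pairs the summits were a median of 402 bp apart (interval 365 to 430, quartiles 301 and 562, highest 1744). The distance took up a median of 37.1% of the whole stretch that a pair covered, against 2.03% in coincident pairs. There were 79 members at 201 to 300 bp, another 79 at 301 to 400 bp, 93 at 401 to 600 bp, 52 at 601 to 1000 bp and 14 beyond 1000 bp. The offset had no preferred side along the chromosome. The uterus summit had the higher coordinate in 149 of 317 displaced pairs, or 47.0% (41.6 to 52.5), and in 47.6% of coincident pairs.

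**Figure D1:**
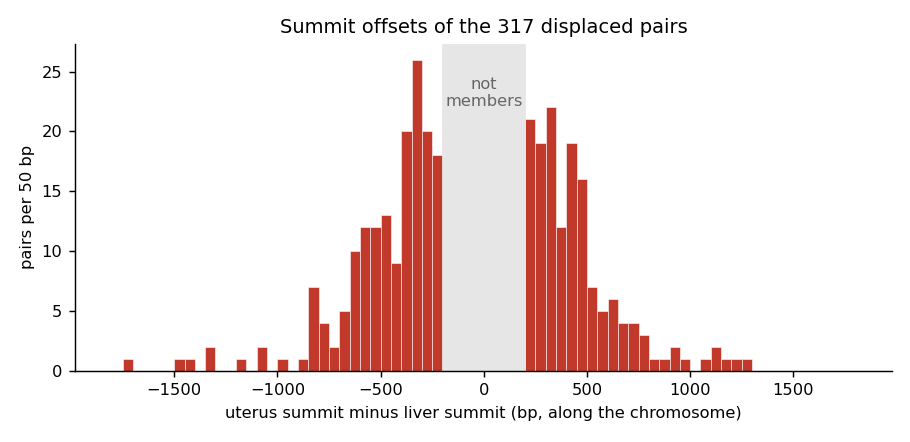
Histogram of the position of the uterus summit minus that of the liver summit, in bp, for the 317 displaced pairs, in bins of 50 bp; the grey band holds the pairs that are not members. Most offsets lie within 600 bp on either side, and the farthest offset is -1744 bp.

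The pairs nearest the threshold on either side are given as examples. Just inside it lay a pair on chromosome 6 (liver peak 54766226 to 54766766) with summits 201 bp apart, one on chromosome 19 (16206754 to 16207262) at 203 bp and one on chromosome 5 (37087025 to 37087653) at 204 bp. Just outside lay pairs on chromosome 4 (40794134 to 40794925) at 200 bp, chromosome 14 (26586984 to 26587605) at 199 bp and chromosome 15 (38228634 to 38229605) at 199 bp. The liver peaks had 31 to 50 tags in the 3 pairs inside the threshold and 59 to 79 in the 3 outside it, and the uterus peaks 54 to 83 and 40 to 166. With 3 pairs per side, nothing is read from these ranges. Over all pairs, median tags in both tissues were 67 at 101 to 200 bp (n = 164) and 71 at 201 to 300 bp (n = 79). In all 6 pairs each peak reached beyond the other on 1 side.

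The strongest displaced pairs were taken as the 8 whose ranks of fold enrichment in the 2 lists had the smallest sum. Fold enrichment is the authors' ratio of ChIP signal to local background, and it is used here only within a list. Positions are on the mm9 build, copied from the authors' lists. The first was found on chromosome 6, with the liver peak at 54709471 to 54710464 and the uterus peak at 54709137 to 54710501. It had 119 tags and 31.3-fold enrichment in liver and 585 tags and 81.3-fold in uterus. The liver peak lay entirely within the uterus peak, and each summit was inside the partner, yet the summits were 402 bp apart.

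The second, on chromosome 8, joined a liver peak at 13506461 to 13507798 (167 tags, 17.4-fold) with a uterus peak at 13506064 to 13507919 (505 tags, 92.9-fold). Its summits were 351 bp apart, again with the liver peak inside the uterus peak. On chromosome 19 a broad region was covered by a peak in both tissues. The liver peak at 23209009 to 23211523 held 452 tags (40.4-fold), and the uterus peak at 23208162 to 23211295 held 647 (44.2-fold). Its summits were 689 bp apart although the peaks shared 2287 bp. Another chromosome 8 pair, at 129133398 to 129134359 in liver, had 223 tags and 39.5-fold enrichment there, 172 tags and 42.9-fold in uterus, and summits 348 bp apart. Both lists thus ranked these peaks high, with the liver fold enrichment above 84% and the uterus value above 92% of the own list in each of these 4 pairs.

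The other 4 had their liver peaks at 167585320 to 167585861 on chromosome 2, 128387420 to 128388416 on chromosome 6, 124456837 to 124457724 on chromosome 5 and 102268681 to 102270262 on chromosome 11. In the chromosome 2 pair a narrow liver peak of 542 bp with 49 tags lay within a uterus peak of 2681 bp with 675 tags. The uterus summit was 736 bp away, outside the liver peak. That uterus peak also overlapped a second liver peak. The summit of this second peak lay 0.375 kb from the midpoint between the summits of the pair, close to the uterus summit. In the chromosome 6 and chromosome 5 pairs the summits were 227 and 257 bp apart. For contrast, the 4 coincident pairs with the best summed rank had summits 1 to 18 bp apart, liver values of 66.2- to 88.4-fold and uterus values of 105- to 133-fold. The leading displaced pairs therefore ranked below the leading coincident pairs in both lists.

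The 6 largest summit distances were found in pairs with at least 1 wide peak, in which each peak reached beyond the other on 1 side. The chromosome 11 pair at 102268681 had the largest, 1744 bp, between a liver peak of 1582 bp with 221 tags and a uterus peak of 2404 bp with 388 tags. The liver summit lay inside the uterus peak, toward its right end, and the uterus summit lay to the left of the liver peak. A second chromosome 11 pair, with a liver peak at 98636056 to 98637326 (515 tags, 35.5-fold) and a uterus peak at 98634798 to 98637277 (440 tags, 22.1-fold), had summits 1487 bp apart. Its uterus peak also overlapped a second liver peak. The summit of that liver peak lay 0.7415 kb from the midpoint between the summits of the pair, close to the uterus summit.

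The next 4 pairs had summits 1257 to 1424 bp apart and lay on chromosomes 9 (2 pairs), 8 and 2. In the chromosome 8 pair, with a liver peak at 96910806 to 96911874, the uterus peak again overlapped a second liver peak. The summit of that liver peak lay 0.6115 kb from the midpoint of the pair, close to the uterus summit. In the chromosome 9 pair at 61226671 to 61227383 the peaks touched over only 26 bp. The chromosome 2 pair at 172981309 to 172983113 joined a wide liver peak of 5.02-fold enrichment, among the lowest of its list, to a narrow uterus peak of 28.0-fold. Across these 6 pairs the peaks overlapped by 26 to 1564 bp, so a large summit distance came with both short and long overlaps.

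**Figure D2:**
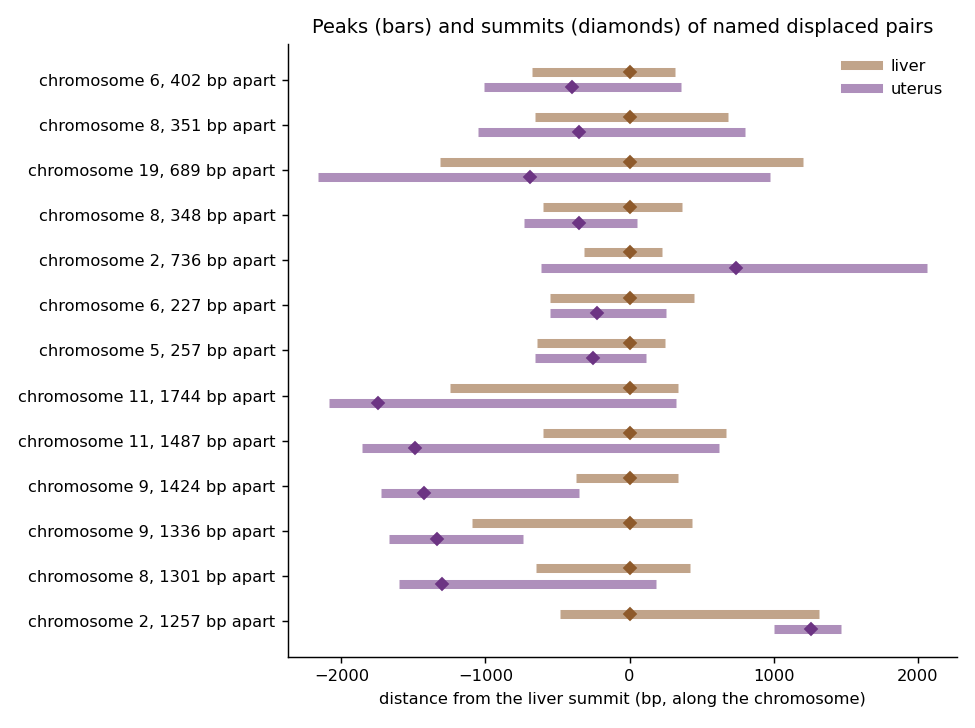
Extent of the liver and uterus peaks (bars) and their summits (diamonds) in the 8 displaced pairs of best summed fold rank and the pairs of largest summit distance, in bp from the liver summit; 1 pair belongs to both sets. The diamonds of a pair lie 227 to 1744 bp apart while the bars overlap.

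Ranked by tags, the displaced pair with the most tags in both lists was a region on chromosome 17 with a liver peak at 39979876 to 39983873 (4003 tags) and a uterus peak at 39979844 to 39983870 (4719 tags). Its fold enrichment of 3.35 and 2.89 was the lowest of each autosomal list, and its summits were 1234 bp apart within an overlap of 3995 bp. It was 1 of 13 displaced pairs, or 4.10% (2.41 to 6.89), with an enrichment under 5-fold in either tissue. In coincident pairs such peaks made up 0.745% (0.361 to 1.53). The other pairs among the 6 with the most tags were 5 already named, 2 on chromosome 11 and 1 each on chromosomes 19, 8 and 6.

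Peaks in displaced pairs were wide in both tissues. Their median width was 841 bp in liver (779 to 882), against 646 bp in coincident pairs (633 to 660) and 632 bp over the autosomal liver list. In uterus it was 845 bp (801 to 875), against 653 bp in coincident pairs (635 to 669) and 581 bp over the list. Width and summit distance are tied, because narrow peaks that overlap leave little room for distant summits. Of the displaced pairs, 132 or 41.6% (36.3 to 47.1) had both peaks among the widest 25% of their lists, compared with 18.2% of coincident pairs. In 58 pairs, or 18.3%, neither peak was that wide.

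The share of displaced pairs rose with the summed width of the 2 peaks. It was 5.81% (3.94 to 8.50) among the narrowest 25% of overlapping pairs, 14.3% and 19.2% in the next groups, and 38.0% (33.5 to 42.8) among the widest 25%. The widths within a pair also differed more. The wider peak was at least 1.5 times as wide as the narrower one in 33.8% of displaced pairs (28.8 to 39.1), against 22.3% of coincident pairs (19.8 to 25.1), and neither tissue was the wider one by preference, the uterus peak being wider in 50.2% of displaced pairs.

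The overlap itself was long. Displaced pairs overlapped by a median of 615 bp (578 to 651), against 564 bp (554 to 575) in coincident pairs, and the overlap covered a median of 95.05% of the narrower peak. Only 27 displaced pairs, or 8.52%, overlapped by less than 100 bp, and none of the 940 coincident pairs did. The longer overlap in displaced pairs did not hold among pairs of similar summed width. The overlap was shorter than in coincident pairs in each of the 4 width groups, with medians of 224 against 463 bp in the narrowest group and 815 against 844 bp in the widest. In the widest group the interval of the difference, -29 bp (-78.1 to 20.1), spanned both signs. At a given summed width distant summits leave less room for overlap, and close summits leave little room for a short one. The order within width groups and the share under 100 bp are thus tied to the rule, and nothing is read from them.

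The arrangement of the peaks is tied to the rule, because peaks extend around their summits and distant summits tend to shift the peaks against each other. Peaks were staggered, each reaching beyond the other on 1 side, in 206 displaced pairs or 65.0% (59.6 to 70.03), against 39.8% of coincident pairs (36.7 to 43.0) and 47.2% of all overlapping pairs. The liver peak lay within the uterus peak in 56 displaced pairs and the uterus peak within the liver peak in 55, so containment was divided evenly. In 191 of the 206 staggered pairs, or 92.7%, the summits followed the order of the peaks along the chromosome, and in staggered coincident pairs that share was 53.7%. Staggering and summit order both depend on the positions that chose the members, so nothing is read from these differences.

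Each summit lay inside the partner's peak in 160 displaced pairs, or 50.5% (45.0 to 55.9), against 90.4% of all overlapping pairs. This placement is part of what the rule selects, and it gives nothing to read from the difference. These 160 pairs had a median summit distance of 316 bp and an overlap of 782 bp, with peaks of 895 bp in liver and 867 bp in uterus. In 49 pairs neither summit was inside the partner. Those pairs touched at their flanks, with a median overlap of 87 bp, a median summit distance of 606 bp and ordinary widths of 632 and 600 bp.

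In the remaining 108 pairs 1 peak reached over the other's summit and not the reverse. The liver summit alone was inside the partner in 63 of them, where the uterus peak was wide (median 1215 bp, 125 tags) and the liver peak narrow (618 bp, 58 tags). The uterus summit alone was inside in 45, where the liver peak was wide (1023 bp, 91 tags) and the uterus peak narrow (568 bp, 47 tags). These groups were formed by which summit the partner covered, so the wide and the narrow peak are tied to that placement. Nothing is read from their widths and tags, and both directions between the tissues occurred.

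The rule also builds in where a summit lies within its own peak, since overlapping peaks with distant summits tend to have them off centre, so the next values are given with nothing read from them. The median distance of the summit from the peak centre was 12.5% of the peak width in liver and 16.4% in uterus. It was 6.35% and 6.76% in coincident pairs, close to the 6.48% and 7.33% of the whole lists. When the liver peak was the inner one, the outer uterus peak had its summit 19.6% off centre and the inner liver peak 8.84%. When the uterus peak was the inner one, the values were 18.2% for the outer liver peak and 17.0% for the inner uterus peak.

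Fold enrichment was lower in displaced than in coincident pairs in both tissues, and below the level of the own list only in uterus. The median was 10.4 in liver (9.97 to 11.2), against 13.6 (13.0 to 14.2) in coincident pairs and 11.2 over the autosomal list, which lay inside the displaced interval. In uterus it was also 10.4 (9.94 to 11.1), against 14.7 (13.5 to 15.5) in coincident pairs and 14.7 over the list. By rank, the median displaced liver peak stood above 42.6% of its list and the median uterus peak above 23.1%, against 69.0% and 49.9% in coincident pairs. Both peaks were among the highest 25% of their lists in 13 displaced pairs, or 4.10% (2.41 to 6.89), and in 187 coincident pairs, or 19.9% (17.5 to 22.6).

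The lower enrichment was not particular to displaced pairs. The 386 pairs with summits 51 to 200 bp apart had medians of 10.3 in liver (9.75 to 10.9) and 10.9 in uterus (10.03 to 11.5), within the intervals of the displaced pairs. Enrichment was highest where summits were at most 20 bp apart, at 14.6 in liver and 16.6 in uterus. It fell to 9.87 and 10.4 at 101 to 200 bp, stood at 9.48 and 10.03 at 201 to 300 bp, and was 12.3 and 11.1 at 601 to 1000 bp. In the 14 pairs beyond 1000 bp it was 9.38 in liver and 15.4 in uterus, the latter above the list median. In each of the 4 width groups the displaced median was below the coincident one in both tissues. Among the widest pairs it was 10.5 against 15.9 in liver and 11.2 against 16.3 in uterus. The differences were smallest in the third group, at -1.88 in liver (-3.54 to -0.22) and -2.57 in uterus (-5.42 to 0.29). That uterus interval included 0.

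**Figure D3:**
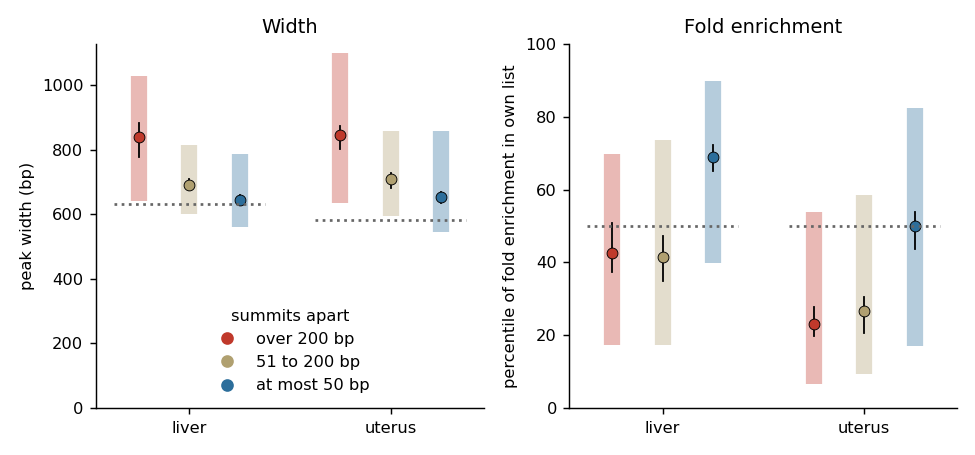
Median (points), 95% interval of the median (black lines) and quartiles (shaded bars) of peak width in bp and of the percentile of fold enrichment within the own list, by distance between the summits; dotted lines are the medians of the autosomal lists. Width is greatest in displaced pairs, at 841 and 845 bp, while the fold percentile is below that of coincident pairs both in displaced pairs and in those 51 to 200 bp apart.

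The order of tags per peak turned once width was held similar. Over all widths, displaced pairs had slightly more tags than coincident pairs in liver, with medians of 74 (71 to 79) and 66 (64 to 69), and in uterus the medians of 77 (68 to 83) and 72 (68 to 77) had overlapping intervals. Within each of the 4 width groups the order was the opposite. In the widest group, displaced liver peaks had a median of 95 tags (83 to 103) against 115 (99 to 128), and displaced uterus peaks 110 (96 to 125) against 145 (123 to 167). In the second group the uterus medians were 47 (44 to 52) and 67 (63 to 72). The differences of the medians, with intervals combined from those of both medians, were -20 tags in liver (-37.6 to -2.39) and -35 in uterus (-61.3 to -8.65) in the widest group. In uterus they were -15.5 (-28.95 to -2.05) in the third group and -20 (-26.02 to -14.0) in the second. The intervals of the other 4 differences, those of the 3 narrower liver groups and the narrowest uterus group, included 0. Lower tags at similar width were not particular to displaced pairs. In the widest group the pairs between these classes had medians of 86 tags in liver (82 to 102) and 114 in uterus (101 to 137). Their medians were below the coincident ones in each group except the third in liver, at 75.5 against 75. In uterus of the second group their median of 60 (57 to 66) lay above the displaced one.

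Per kb of peak, displaced pairs carried fewer tags than coincident pairs and about as many as the lists. The medians were 88.4 tags per kb in liver (85.7 to 94.5) against 98.1 (95.4 to 100.8) in coincident pairs, and 89.2 in uterus (84.7 to 92.5) against 102 (99.03 to 106). The autosomal lists had medians of 88.7 and 91.5, inside the intervals of the displaced pairs, and the pairs between gave 92.4 and 94.6.

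**Figure D4:**
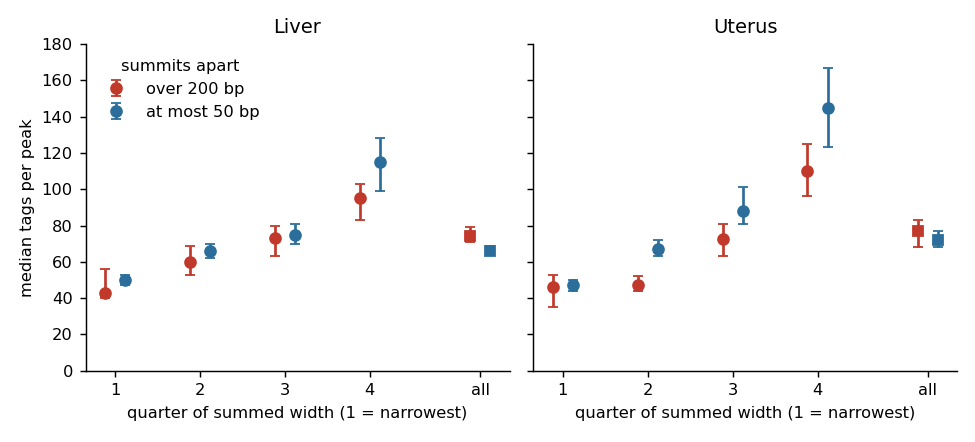
Median tags per peak with 95% intervals in displaced and coincident pairs, by 4 groups of the summed width of the pair from narrowest to widest (circles) and over all pairs (squares), for liver and uterus. In every group the displaced median is below the coincident one, while over all pairs it is above it, with 74 and 66 tags in liver and 77 and 72 in uterus.

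The balance of tags between the tissues did not set displaced pairs apart. The log2 ratio of uterus to liver tags had a median of 0.04 in displaced pairs (-0.09 to 0.16) and of 0.04 in coincident pairs (-0.03 to 0.13); the ratio is not scaled to depth, which is the same for all pairs. Tags differed by a factor of 2 or more in 31.9% of displaced pairs (27.0 to 37.2) and 31.5% of coincident pairs (28.6 to 34.5). The ratio followed containment, with a median of 1.00 where the liver peak lay within the uterus peak and -0.87 in the reverse case, so the outer peak had the more tags. Across pairs, the fold enrichments of liver and uterus had a Spearman correlation of 0.19 in displaced pairs (n = 317) and 0.42 in coincident pairs (n = 940). All pairs share the same 2 libraries, and the displaced pairs cover a narrower range, with liver quartiles of 8.16 and 13.7 against 10.2 and 20.3.

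Other peaks lay near displaced pairs more often than near coincident ones. A further liver summit was found within 10 kb of the midpoint of 128 displaced pairs, or 40.4% (35.1 to 45.9), against 28.9% (26.1 to 31.9) of coincident pairs and 32.4% of all overlapping pairs. A further uterus summit was found within 10 kb of 151, or 47.6% (42.2 to 53.1), against 36.2% (33.2 to 39.3) and 40.0%. The differences between displaced and coincident pairs were 11.4 percentage points in liver (Newcombe interval 5.40 to 17.6) and 11.5 in uterus (5.19 to 17.7). Summits of both lists were within 10 kb of 27.8% of displaced and 16.6% of coincident pairs.

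Set against the lists, the coincident pairs stood lowest and the displaced pairs near the list. Counted from each peak's own summit to others of its list, 40.2% of displaced liver peaks (34.9 to 45.7) had a neighbour within 10 kb, and 40.4% of the whole autosomal liver list did. For uterus the values were 47.2% (41.7 to 52.7) and 47.7%. In coincident pairs they were 28.9% and 36.2%. The difference in neighbours also varied with width. Among the widest 25% of pairs, which held 156 of the 317 members, a liver neighbour was found for 39.7% of displaced and 35.7% of coincident pairs, and a uterus neighbour for 50% and 48.0%, with overlapping intervals.

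**Figure D5:**
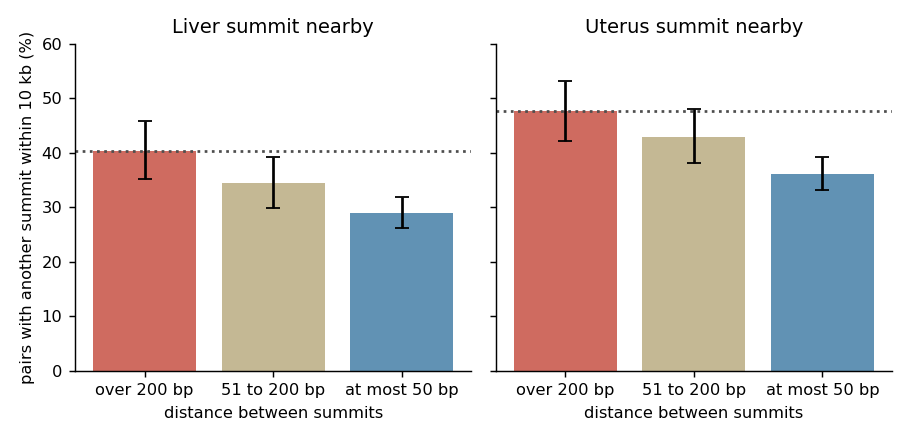
Share of pairs with another liver (left) or uterus (right) summit within 10 kb of the midpoint between the summits, in percent, with 95% Wilson intervals, by distance between the summits; dotted lines give the share of all autosomal peaks of that list with a neighbour in it, counted from their own summits. The displaced bars, at 40.4% and 47.6%, stand at the dotted lines and the coincident bars below them.

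A small number of displaced pairs came from a peak that overlapped several peaks of the other list. In 22 of the 317 pairs, or 6.94% (4.63 to 10.3), at least 1 peak took part in more than 1 pair, against 1.38% of coincident pairs (0.810 to 2.35). In 17 of these displaced pairs the uterus peak was shared and in 6 the liver peak. A peak that overlaps several peaks of the other list can hardly have its summit close to each of theirs. The rule therefore tends to class the further pairs as displaced, and nothing is read from the difference to coincident pairs. In 22 displaced pairs a summit lay nearer to another summit of the other list than to its partner's, and 21 of these pairs shared a peak. In 13 pairs that other summit was within 50 bp. For the remaining 295 pairs, the partner held the nearest summit of the other list in both directions.

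The chromosome 13 peak at 52152490 to 52153426 in liver, with 242 tags and 88.4-fold enrichment, is such a case, described after its values were seen. It coincided with a uterus peak whose summit was 4 bp away, and it also touched the end of a weaker uterus peak at 52151656 to 52152492 (59 tags, 9.70-fold) over 3 bp, with summits 832 bp apart. A liver peak on chromosome 2 at 154899605 to 154900653 with 81 tags overlapped 2 uterus peaks of 40 tags each, and was displaced from both, by 548 and 1061 bp. On chromosome 9 a uterus peak at 115219064 to 115220306 with 91 tags overlapped 2 liver peaks of 43 and 35 tags, with its summit 682 and 1165 bp from theirs.

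Displaced pairs were found on all 19 autosomes, from 7 on chromosome 16 to 33 on chromosome 11. Their share of the overlapping pairs ran from 12.7% (6.30 to 24.0) on chromosome 16 to 28.8% (19.3 to 40.6) on chromosome 13, and these intervals overlapped. The spacing of members is given without that of other overlapping pairs, so it has no baseline. Another displaced pair lay within 10 kb of 6 members and within 100 kb of 44, or 13.9%. It lay within 1 kb of 4 members, among them the chromosome 2 and chromosome 9 pairs described above that share a peak.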

How the data were processed

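ChIP-seq of ESR1 from 1 liver and 1 uterus library was analysed from the authors' peak lists. Per the submitters' processing notes, peaks were called with MACS 1.3.7.1 on mm9. Per the file headers, each library was called separately against 1 control, with a p cutoff of 1.00e-10 and a band width of 300 bp. The headers give a value d of 115 bp in liver and 106 bp in uterus. An aligner is not named in the sources used here. The deposited tags are raw counts per peak. The deposited fold enrichment is a ratio to local background. The deposited score is the −log10 of the MACS p-value times 10. The deposited FDR is in percent (at most 0.66 in liver and 0 in uterus) and was not used.

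Summit positions were start plus summit offset minus 1. Pairs were classed by summit distance; ranks and percentiles refer to the autosomal lists. Neighbours were summits outside the pair within 10 kb. Width groups were 4 equal groups of pairs by summed width. Pairs were named by fixed rules: the 8 best summed fold ranks, the 6 largest distances, the 6 best summed tag ranks, 3 on each side of the threshold and 4 coincident pairs. Members, rules and measures were chosen with earlier results of these data known. Pairing was tested on simulated lists, and the interval of the median on samples drawn from the liver widths of the overlapping pairs. The other intervals were not tested in this way. Genes, motifs and sequence at the pairs had been planned and were not analysed here, because no mm9 reference was used and positions stayed on that build. Calculations ran in Python 3.11.15 with pandas 2.3.3, numpy 2.4.6 and scipy 1.17.1, and plots in matplotlib 3.10.9.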

Additional observations from a re-analysis of the deposited data

How the results depend on the processing

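No paired analysis was possible because each tissue has 1 library and no test was run. With displaced pairs defined by more than 150 or 300 bp, their share was 23.3% or 14.5%. When both peaks had to score at least 200 it was 16.8% of pairs, and displaced minus coincident medians became 264.5 bp (liver width), 251.5 bp (uterus width), 147 bp (overlap), -7.78 (liver fold) and -10.97 (uterus fold), against 195.5 bp, 192.5 bp, 51 bp, -3.17 and -4.25 as reported. With coincident pairs at most 20 bp apart, the fold differences were -4.17 and -6.16, and the uterus tag difference turned from 5 to -2. Within width groups 1 (narrowest) to 4, the tag differences turned to -7, -6, -2 and -20 in liver (8 as reported) and -1, -20, -15.5 and -35 in uterus, and the overlap difference to -239, -137, -78 and -29 bp. Fold differences were -1.88 and -2.57 in group 3 and -5.40 in liver in group 4. The neighbour differences within width groups, an alternative chosen after seeing the data, were 2.696, 19.7 and 4.07 points in liver (groups 1, 2 and 4) and 2.61 and 2.05 points in uterus (groups 1 and 4). Of 116 alternative values of these results, 85 stayed within the interval of the reported value, 18 moved beyond it and 13 changed sign; for the changes other than those by width group or class limits, the cause was not tested. Requiring 100 bp of overlap, leaving out pairs under 5-fold, keeping only pairs with 1 partner each, adding the X chromosome, and setting the neighbour distance at 5 or 25 kb changed no direction. The narrowest group held 24 displaced pairs, which limits its precision.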

Other observations

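Beside the overlapping pairs there were close peaks of the 2 tissues that did not overlap. On the autosomes, 154 combinations of a liver and a uterus peak had summits within 1000 bp of each other without sharing a base, and 303 of the 317 displaced pairs had summits within that distance. Peaks with summits this close that share no base have little room for width. Their widths, edge distances and closest summits are thus tied to the selection. Median widths were 624 bp in liver and 591 bp in uterus, near the 632 and 581 bp of the autosomal lists. The edges of these peaks were a median of 184 bp apart. Their median fold enrichment was 11.0 in liver and 12.1 in uterus, and their closest summits were 423 bp apart. By the overlap rule, close sites counted as a displaced pair only where the called peaks reached each other.

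The X chromosome was outside the rule. Its 8 overlapping pairs had summits 6 to 157 bp apart, so none was displaced; with 0 of 8 pairs, a share of up to 37.5% is allowed, taken as 3 counts of the total in place of a Wilson bound, which covers counting error only.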
